A study of Mus musculus with 24 samples.

Results

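A set of 45 genes that build ribosomes in the nucleolus was followed across cultured D2.1 and D2A1 cells and the tumors these lines formed. The members are a list of gene symbols drawn up with earlier results of these data known, the list itself uses no cutoff on a measured value, and all 45 were found by Ensembl identifier among the 55288 genes listed in the deposited tables. D2.1 and D2A1 are mammary tumor cell lines derived from D2 hyperplastic alveolar nodules of female BALB/c mice, and D2.1 is the dormancy-competent line of the pair. Each was sequenced as cultured cells (3 libraries per line) and as whole tumors in the mammary fat pad (MFP) of female mice, with 4 tumors per line in BALB/c mice and 5 per line in SCID-beige mice. BALB/c mice are immunocompetent, and SCID-beige mice carry the Prkdc scid and Lyst bg alleles and lack T and B cells and functional NK cells. Mice received 1000000 cells at 8 to 12 weeks of age, and tumors were taken at about 500 mm3. All groups share the BALB/c origin of the tumor cells, each line is a single established line, and a tumor library also holds RNA of the host's stroma and blood vessels. Nothing in the labels says whether the cultured replicates came from separate cultures, so p-values in culture measure the spread between those libraries.

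Ribosome production begins when RNA polymerase I copies the ribosomal DNA into a long precursor RNA inside the nucleolus. Small nucleolar ribonucleoproteins (snoRNPs) then guide chemical marks onto this precursor, and large sets of assembly factors cut and fold it into the small and the large ribosomal subunit. The transcription factor Myc is known to raise many of these genes in growing cells, which is why they are described here next to Myc. By role, the 45 members were 4 genes of polymerase I transcription, 4 of the box C/D snoRNPs (2′-O-methylation guides), 3 of the box H/ACA snoRNPs (pseudouridine guides), 14 of small subunit assembly, 16 of large subunit assembly and 4 abundant nucleolar phosphoproteins.

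Myc binds the E-box CACGTG, so the members' promoters were searched for it in the 250 bases before the annotated start (RefSeq, GRCm38.p6). The motif reads the same on both strands. It was present before 3 of the 40 members with a promoter in the table (7.5%), against 1854 of all 27025 genes (6.86%), so the members held it about as often as other genes. The other 5 members, Npm1, Rrs1, Fbl, Rrp12 and Bop1, were not in the table. The 3 promoters that hold the motif are shown around it, 5′ to 3′ on the gene's strand with the motif in capitals, because their genes were among those lower in D2.1 cells.
Imp4, chr1:34439671-34439750, plus strand: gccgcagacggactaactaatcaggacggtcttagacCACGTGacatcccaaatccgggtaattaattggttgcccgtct
Nop2, chr6:125131786-125131865, plus strand: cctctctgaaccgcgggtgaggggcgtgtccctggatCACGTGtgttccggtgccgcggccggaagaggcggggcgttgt
Utp18, chr11:93885767-93885823, minus strand: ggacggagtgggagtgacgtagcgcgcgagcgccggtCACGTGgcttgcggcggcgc
The motif began 121 bases before the start of Imp4, 60 before Nop2 and 20 before Utp18. A match describes the letters only, and the absence of these letters from the other windows says nothing about Myc at those genes.

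Library totals were 16837260 to 24818234 counts in culture and 13566949 to 18355153 in tumors, and 3 counts, taken as the floor, corresponded to 0.121 to 0.178 CPM and 0.163 to 0.221 CPM. CPM are counts scaled to library size (counts per 1000000) after TMM scaling within each table. The culture and tumor tables were made with different annotations (35275 and 54532 genes listed), so their levels are not compared with each other. The gene length behind FPKM differed by over 10 percent between the tables in 82.2% of genes, members included. Wdr74, a large subunit assembly factor, was at 37.5 to 106 CPM in every cultured library and at 0.173 to 1.55 CPM in every tumor, and it was not tested in either comparison of the lines as tumors. The cause of that gap was not tested. Exons of 19 members overlapped a gene on the opposite strand, among them Nop56 with Idh3b, Dkc1 with Mpp1, Wdr12 with Carf and Bysl with Ccnd3, and whether the counting used strand is not given in the sources used here. Values of these members may hold reads of their neighbors, and Npm1 has processed pseudogenes that can take up some of its reads.

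Myc itself (chromosome 15, 61985391 to 61990374, GRCm38) was lower in D2.1 than in D2A1 in culture and in both hosts. Cultured D2.1 cells had 99.8, 90.9 and 93.9 CPM, and D2A1 cells had 256, 258 and 341 CPM. Tumors in BALB/c mice had 70.4, 98.2, 60.5 and 55.1 CPM for D2.1, and 347, 331, 265 and 244 CPM for D2A1. In SCID-beige mice the D2.1 tumors had 73.7, 87.8, 132, 212.2 and 93.3 CPM, and the D2A1 tumors had 257, 300, 262, 244 and 514 CPM. No D2.1 library reached a D2A1 library in any of the 3 settings, although D2.1 SCID-beige tumor 4 came close. In a bulk tumor, fewer tumor cells and less of a transcript per cell cannot be told apart. The log2 fold change of D2.1 against D2A1 was -1.59 in culture (SE 0.15, adjusted p 4.7e-05), -2.06 in BALB/c tumors (SE 0.21, adjusted p 5.4e-05) and -1.39 in SCID-beige tumors (SE 0.29, adjusted p 0.0026), by edgeR's quasi-likelihood test with Benjamini-Hochberg adjustment over all genes tested. That test and adjustment stand behind every adjusted p below unless another is named, with 0.05 as the threshold.

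In all 3 comparisons of the lines, each member that passed the threshold was lower in D2.1. In culture 18 of 45 members were lower (40%, where 20.7% of the 12489 genes tested were lower), in BALB/c tumors 27 of 44 (61.4%, against 15.8% of 14953 genes), and in SCID-beige tumors 16 of 44 (36.4%, against 14.8% of 14355 genes). The number of members higher in D2.1 was 0 in each comparison, by edgeR and by DESeq2, where 24.2%, 16.8% and 17.2% of all genes were higher by edgeR. At an unadjusted p under 0.05 it was 0 in culture and in BALB/c tumors by edgeR, beside 27.3% and 21.5% of all genes. In SCID-beige tumors Ltv1, an export factor of the small subunit, was the member with such an increase, beside 22.1% of all genes (log2 fold change 0.44, SE 0.19, unadjusted p 0.036, adjusted p 0.093). The median log2 fold change of the members was -0.47 in culture, -0.74 in BALB/c tumors and -0.39 in SCID-beige tumors, while that of all genes tested was -0.02, -0.02 and 0.02. Fitted changes were negative for 40 of 45 members in culture, 43 of 44 in BALB/c tumors and 38 of 44 in SCID-beige tumors, beside 51.1%, 51.1% and 49% of all genes.

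**Figure D1:**
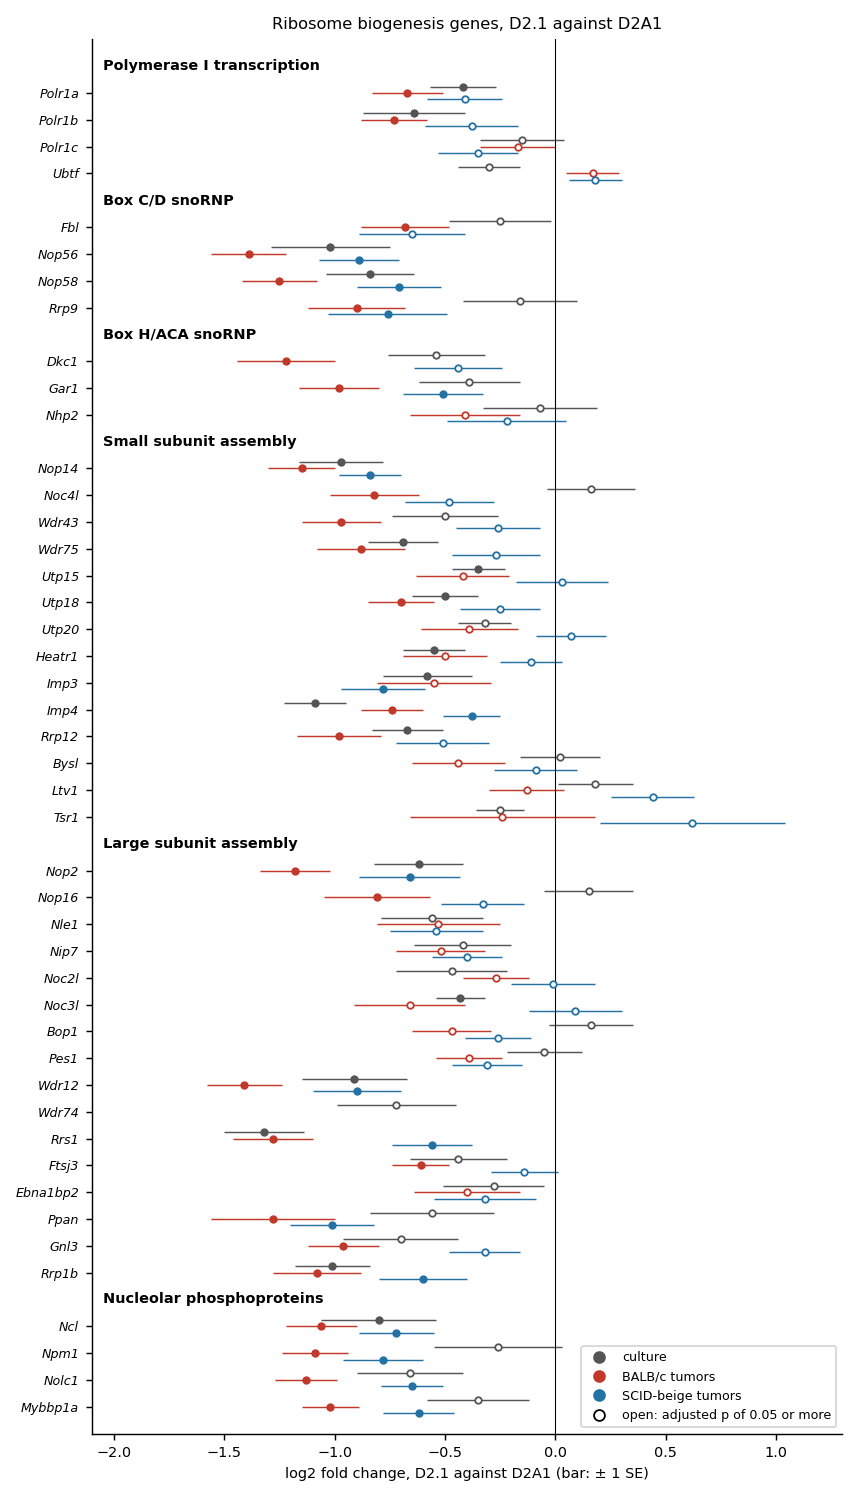
Log2 fold change of D2.1 against D2A1 (x axis, bars ± 1 SE) for each of the 45 members by role, in culture (gray), BALB/c tumors (red) and SCID-beige tumors (blue), with filled points past an adjusted p of 0.05. All filled points lie left of 0, with 18, 27 and 16 of them, and Wdr74 has a point in culture only because it was not tested in tumors.

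In culture, replicate 3 was the lowest of its group for 42 of 45 members in D2.1 cells and for 40 of 45 in D2A1 cells, with a median deviation from the group mean of -0.34 and -0.33 on the log2 scale. Same-numbered cultured libraries deviated together across all genes (correlations 0.332, 0.184 and 0.491), so the replicate number was also used as a block. No label states such a pairing, and in culture only replicate 3 correlated best with its own number in both lines. In BALB/c mice only replicate 2 did so, and in SCID-beige mice replicates 1, 2 and 5. Values under the block, here and below, therefore rest on a pairing inferred from these data. With the block, 35 of 45 members were lower in cultured D2.1 cells (29.7% of all genes tested were lower) and 0 were higher. The same block gave 39 of 44 lower in BALB/c tumors (24.8% of all genes). Its count for SCID-beige tumors is given in the last section, without a share of all genes. With the block and a GC slope together, 21 members were lower in culture, 0 in BALB/c tumors (edgeR, 2 residual degrees of freedom, 16 at an unadjusted p under 0.05) and 2 in SCID-beige tumors, so no member kept its call in BALB/c tumors in that fit. The share of all genes called in that fit is not given here, so its counts cannot be set against other genes. The 18 members called in culture without the block were all called with it. Without D2A1 replicate 3 the unblocked count in culture was 29, and without D2A1 replicate 1 or replicate 2 it was 10. These counts too are given without the share of all genes.

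**Figure D2:**
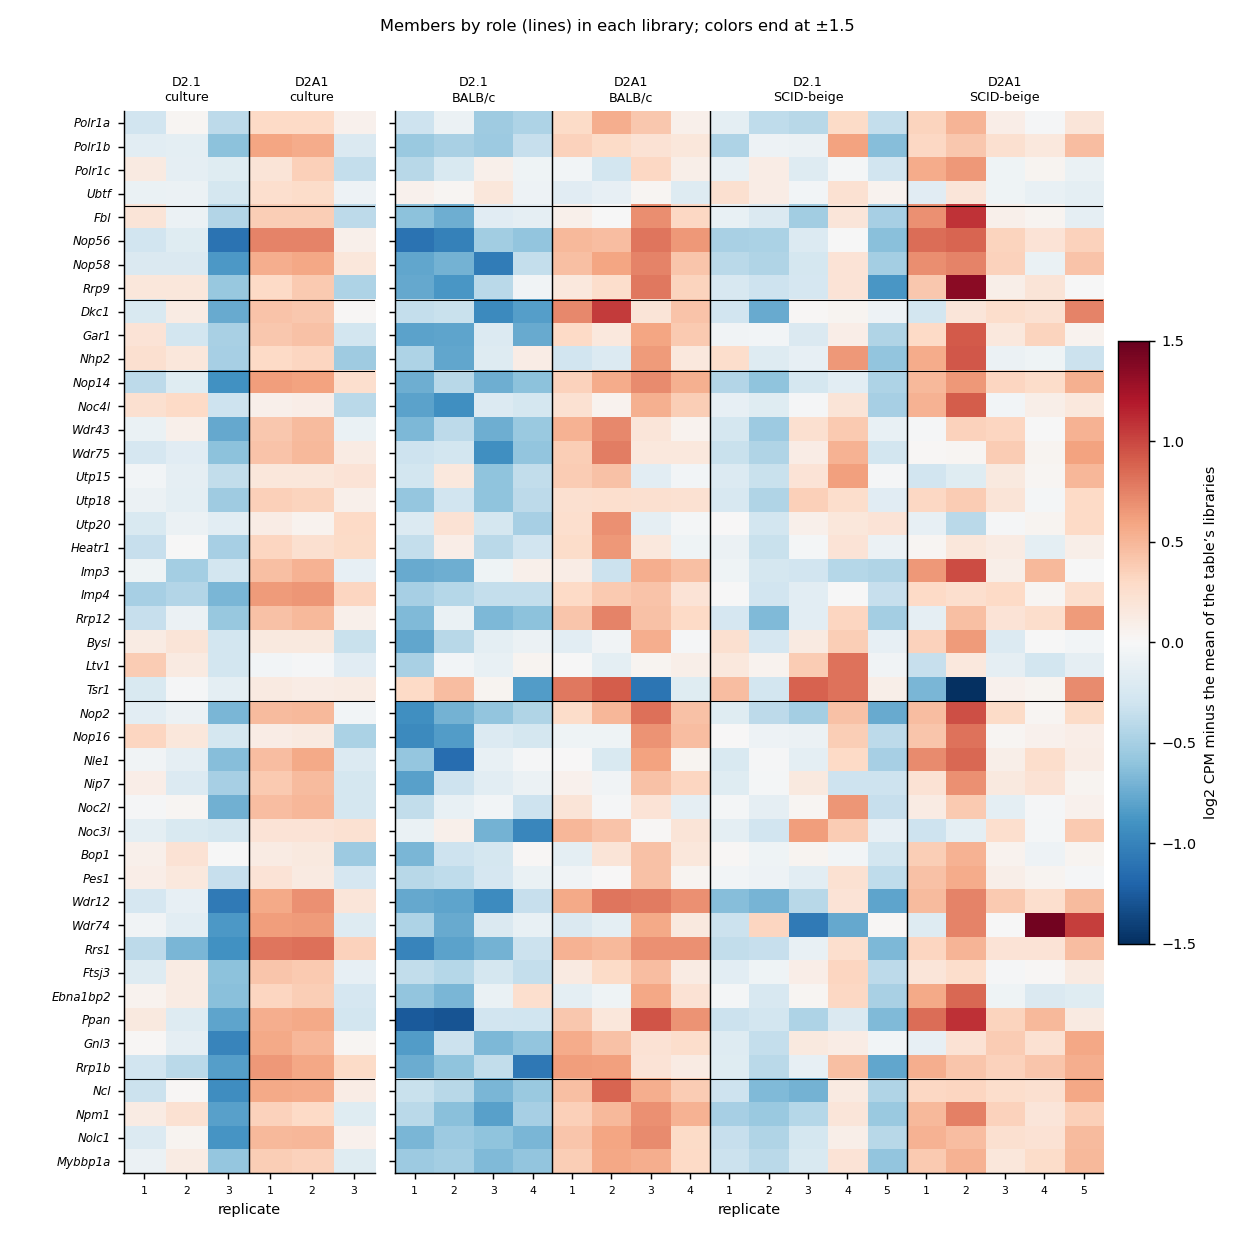
Level of each member in each of the 24 libraries, as log2 CPM minus the mean over the libraries of the same table (color, ending at ±1.5), with replicates on the x axis and members by role on the y axis. The column of replicate 3 has the lowest colors of each cultured line for most members, and D2.1 SCID-beige tumor 4 is the reddest of the D2.1 tumors.

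Of the 4 box C/D snoRNP genes, 2 were lower in D2.1 in culture, 4 in BALB/c tumors and 3 in SCID-beige tumors. The shares of all genes lower there were 20.7%, 15.8% and 14.8%. Their shared core is fibrillarin (Fbl, the methyltransferase, chromosome 7, 28169710 to 28179269) with the scaffold proteins Nop56 (chromosome 2, 130274430 to 130279313) and Nop58. Rrp9 binds the U3 snoRNP that helps to cleave the precursor RNA. Nop56 in cultured D2.1 cells was at 329, 352 and 185 CPM, against 669, 671 and 421 CPM in D2A1 cells. Each D2.1 culture lay below each D2A1 culture, and D2.1 was lower by -1.02 (log2, SE 0.27, adjusted p 0.015). In BALB/c tumors Nop56 was at 94.0, 100, 141 and 134 CPM in D2.1 and at 284, 280, 352 and 318 CPM in D2A1, with no overlap and a log2 fold change of -1.39 (SE 0.17, adjusted p 1.7e-04). In SCID-beige tumors the D2.1 values of 144, 145, 175, 203 and 132 CPM also stayed below the D2A1 values of 362, 372, 256, 234 and 257 CPM (log2 fold change -0.89, SE 0.18, adjusted p 0.0019). Nop58 followed with -0.84, -1.25 and -0.71 in culture, BALB/c and SCID-beige tumors, and was lower in D2.1 in each. Fbl was lower in BALB/c tumors (-0.68, SE 0.20, adjusted p 0.025), where D2.1 tumors held 88.4, 82.1, 121 and 123 CPM and D2A1 tumors 144, 135, 221 and 168 CPM. In culture and in SCID-beige tumors the Fbl values overlapped between the lines and missed the threshold (-0.25, SE 0.23, adjusted p 0.42, and -0.65, SE 0.24, adjusted p 0.0506). Rrp9 was lower in D2.1 in both hosts (-0.90 and -0.76) and not called in culture (-0.16, SE 0.26, adjusted p 0.66).

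Of the 3 box H/ACA genes, 0 were called in culture (edgeR, with 1 at an unadjusted p under 0.05), 2 in BALB/c tumors and 1 in SCID-beige tumors. Shares of all genes called lower in D2.1 were 20.7%, 15.8% and 14.8%. Dkc1 (dyskerin, the pseudouridine synthase, chromosome X, 75095854 to 75109777) was at 54.2, 55.2, 36.0 and 39.3 CPM in D2.1 BALB/c tumors and at 114, 144, 79.5 and 93.6 CPM in D2A1 BALB/c tumors. All 4 D2.1 tumors lay below all 4 D2A1 tumors (log2 fold change -1.22, SE 0.22, adjusted p 0.0023). In SCID-beige mice the D2.1 range of 41.4 to 71.3 CPM (median 66.0) overlapped the D2A1 range of 57.7 to 117 CPM (median 81.3), and the change of -0.44 was not called (SE 0.20, adjusted p 0.11). The change of Dkc1 in culture was -0.54 (SE 0.22, adjusted p 0.077), and with the replicate block it was -0.57 and past the threshold (adjusted p 2.8e-04). Gar1 was lower in BALB/c (-0.98) and SCID-beige tumors (-0.51), and Nhp2, which binds the guide RNA with them, was called in none of the 3 comparisons (-0.07, -0.41 and -0.22).

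The 4 nucleolar phosphoproteins were lower in D2.1 tumors of both hosts, beside 15.8% of all genes in BALB/c and 14.8% in SCID-beige mice. Per length, Npm1 (nucleophosmin, a chaperone that stores and moves ribosomal particles, chromosome 11, 33152287 to 33163206) was the most abundant member in every group, with 1511 ± 239 FPKM in cultured D2A1 cells, 1145 ± 345 in cultured D2.1 cells, 1155 ± 70.4 in D2A1 and 517 ± 66.2 in D2.1 BALB/c tumors, and 1065 ± 114 in D2A1 and 602 ± 144 in D2.1 SCID-beige tumors (SD, n = 3, 4 and 5). Tumors of D2.1 in BALB/c mice had 614, 525, 462 and 571 CPM of Npm1, and those of D2A1 had 1039, 1137, 1306 and 1167 CPM, without overlap (log2 fold change -1.09, SE 0.15, adjusted p 3.0e-04). In SCID-beige mice 4 D2.1 tumors lay at 551 to 604 CPM and 1 at 922 CPM, which was above the lowest of the D2A1 tumors (914 to 1375 CPM, log2 fold change -0.78, SE 0.18, adjusted p 0.0048). In culture Npm1 overlapped, with 2286, 2461 and 1196 CPM in D2.1 and 2658, 2591 and 1861 CPM in D2A1. Its log2 fold change of -0.26 there (SE 0.29, adjusted p 0.50) became -0.31 with an adjusted p of 0.031 under the replicate block. It was 0.17 with the block and a GC slope and 0.01 without D2.1 replicate 3, so its direction in culture was not stable.

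Nucleolin (Ncl, which binds the precursor RNA and ribosomal DNA, chromosome 1, 86344719 to 86359400) was the phosphoprotein gene called in culture as well. It stood at 1779, 2252 and 1173 CPM in D2.1 cells and 3335, 3279 and 2422 CPM in D2A1 cells (log2 fold change -0.80, SE 0.26, adjusted p 0.035). In BALB/c tumors D2.1 had 585.3, 551, 458 and 501 CPM and D2A1 had 1012, 1349, 1071 and 963 CPM (-1.06, SE 0.16, adjusted p 5.5e-04). In SCID-beige tumors D2.1 had 593, 463, 451, 807 and 536 CPM and D2A1 had 914, 923, 887, 866 and 1105 CPM (-0.72, SE 0.17, adjusted p 0.006). The lines did not overlap in any setting for Ncl. Nolc1, a snoRNP chaperone, and Mybbp1a, a nucleolar Myb-binding protein, were lower in D2.1 tumors by -1.13 and -1.02 in BALB/c mice and by -0.65 and -0.62 in SCID-beige mice, all past the threshold.

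**Figure D3:**
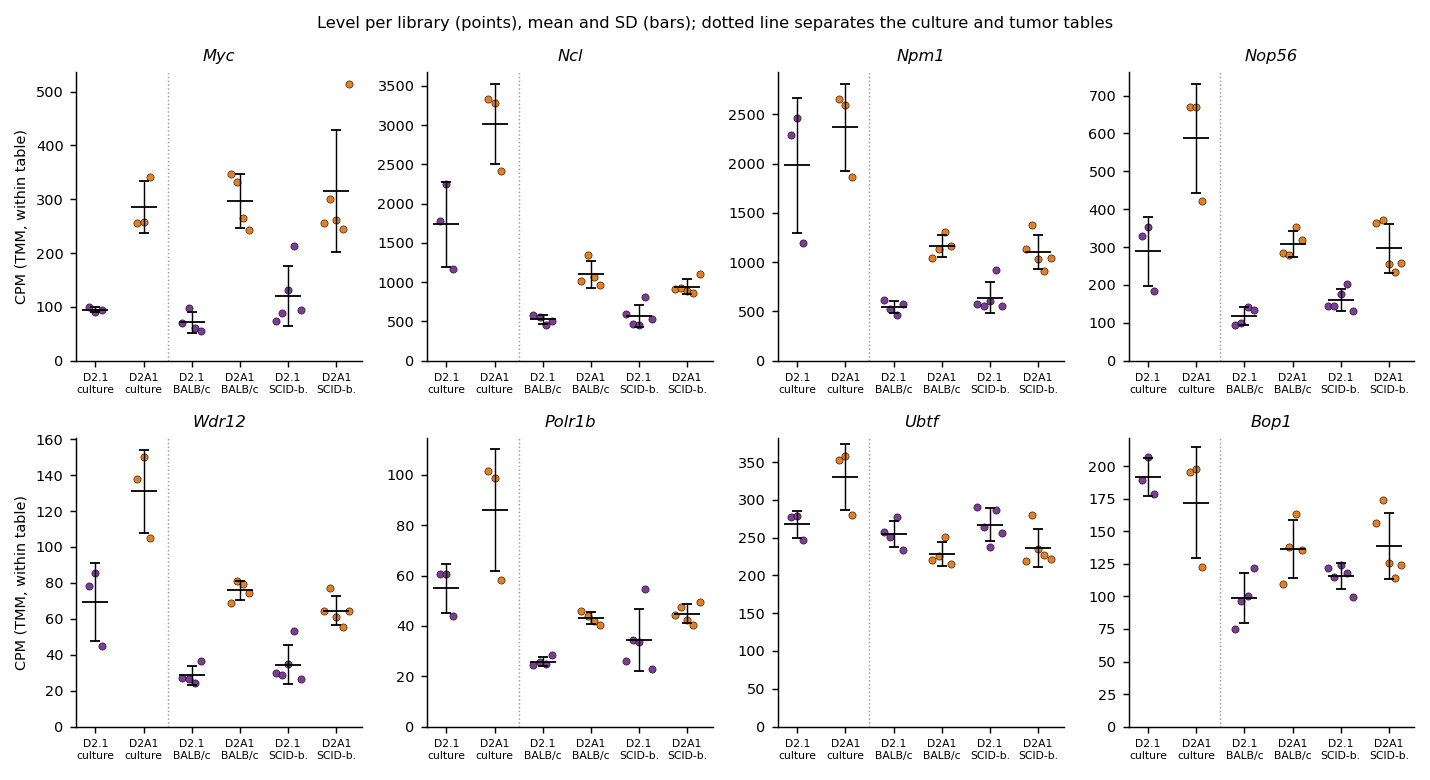
CPM of Myc and 7 members in each library (points, purple D2.1 and orange D2A1), with the mean and SD of each group (bars) and a dotted line between the culture and tumor tables, whose CPM are not comparable. Myc, Ncl, Nop56 and Wdr12 are separated by line in BALB/c tumors and in SCID-beige tumors, while Ubtf and Bop1 overlap between lines in both.

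Of the 4 polymerase I genes, 2 were lower in D2.1 in culture and 2 in BALB/c tumors, and in SCID-beige tumors 0 passed the threshold (edgeR, with 1 at an unadjusted p under 0.05). Among all genes 20.7%, 15.8% and 14.8% were called lower in these comparisons. Polr1a and Polr1b, the catalytic subunits of the enzyme, were lower in D2.1 in culture (-0.42 and -0.64) and in BALB/c tumors (-0.67 and -0.73), and neither was called in SCID-beige tumors (-0.41, adjusted p 0.082, and -0.38, adjusted p 0.19). Polr1b (chromosome 2, 129100995 to 129126594) had 24.3, 25.7, 24.7 and 28.4 CPM in D2.1 BALB/c tumors and 45.8, 43.8, 41.9 and 40.4 CPM in D2A1 BALB/c tumors. In SCID-beige mice D2.1 tumors spread from 23.1 to 54.6 CPM, with the highest of them above all 5 D2A1 tumors (40.2 to 49.5 CPM). Polr1c, a subunit shared with polymerase III, was called in none of the 3 comparisons (-0.15, -0.17 and -0.35).

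Ubtf, which encodes the architectural factor UBF that keeps ribosomal DNA open (chromosome 11, 102304560 to 102319742), was the member with a fitted decrease in culture and a fitted increase in both hosts. It was at 277, 279 and 247 CPM in cultured D2.1 cells and at 352, 358 and 280 CPM in D2A1 cells (-0.30, SE 0.14, adjusted p 0.11), and the block brought this past the threshold (-0.30, adjusted p 0.013). In tumors the fitted changes were 0.17 in BALB/c mice (SE 0.12, adjusted p 0.33) and 0.18 in SCID-beige mice (SE 0.12, adjusted p 0.31), neither past the threshold, and the lines overlapped in both hosts. The difference between the SCID-beige and culture changes was 0.49 (SE 0.19, adjusted p 0.10), so a difference between settings was not shown.

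Of the 14 small subunit assembly genes, 8 were lower in D2.1 cells (57.1%, against 20.7% of all genes) and 7 in D2.1 BALB/c tumors (50%, against 15.8%). In D2.1 SCID-beige tumors 3 were lower (21.4%, near the 14.8% of all genes). Imp4 (chromosome 1, 34439851 to 34449356) joins the U3 snoRNP to the early small subunit particle. It was at 47.4, 49.5 and 42.0 CPM in cultured D2.1 cells and at 105, 107 and 84.1 CPM in D2A1 cells (-1.09, SE 0.14, adjusted p 2.9e-04). Imp4 was also lower in BALB/c tumors, where D2.1 had 39.6, 41.2, 43.7 and 43.4 CPM and D2A1 had 68.7, 72.7, 75.2 and 64.2 CPM (-0.74, SE 0.14, adjusted p 0.0022). In SCID-beige tumors the lines came closer but did not overlap, with 55.5, 45.9, 49.8, 55.8 and 43.8 CPM in D2.1 and 68.3, 66.3, 68.7, 56.8 and 65.9 CPM in D2A1 (-0.38, SE 0.13, adjusted p 0.045). Nop14, a factor of the same particle, was lower in all 3 (-0.97, -1.15 and -0.84). Heatr1, an early factor that also supports polymerase I (chromosome 13, 12395027 to 12440289), was lower in culture (-0.55, SE 0.14, adjusted p 0.014). In BALB/c tumors Heatr1 was at -0.50 (SE 0.19, adjusted p 0.069), and at -0.49 with an adjusted p of 0.0048 under the block.

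Bysl, which acts on the maturing particle (chromosome 17, 47599331 to 47611492), was at 119, 125 and 90.4 CPM in D2.1 cells and at 121, 121 and 86.7 CPM in D2A1 cells, overlapping throughout (0.02, SE 0.18, adjusted p 0.93). Its change was -0.44 in BALB/c tumors (SE 0.21, adjusted p 0.15, and 0.026 under the block) and -0.09 in SCID-beige tumors (SE 0.19, adjusted p 0.75). Ltv1 and Tsr1, which ride the particle to the cytoplasm, were called in none of the 3. Tsr1 varied widely among D2A1 tumors, with 47.0, 51.3, 12.6 and 24.0 CPM in BALB/c mice and 16.8, 4.79, 28.4, 28.0 and 44.5 CPM in SCID-beige mice, and D2A1 SCID-beige tumor 2, at 4.79 CPM, was the highest D2A1 SCID-beige tumor for 30 of the members.

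The largest fitted decrease of each comparison of the lines was in a large subunit assembly gene. Of this role 5 of 16 members were lower in D2.1 in culture (31.2%, against 20.7% of all genes). In BALB/c tumors 8 of 15 were lower (53.3%, against 15.8%), and in SCID-beige tumors 5 of 15 (33.3%, against 14.8%). Wdr12 (chromosome 1, 60069785 to 60098645) forms the PeBoW complex with Pes1 and Bop1, neither of which was called. In BALB/c tumors Wdr12 was at 27.1, 26.7, 24.0 and 36.3 CPM in D2.1 and at 68.7, 80.8, 79.1 and 74.5 CPM in D2A1 (-1.41, SE 0.17, adjusted p 1.5e-04). It was lower in D2.1 also in SCID-beige tumors, with 29.6, 28.5, 34.6, 53.4 and 26.6 CPM against 64.5, 77.3, 60.8, 55.2 and 64.2 CPM (-0.90, SE 0.20, adjusted p 0.0036). In culture the values were 78.4, 85.5 and 44.6 CPM against 138, 150 and 105 CPM (-0.91, SE 0.24, adjusted p 0.015). Wdr12 did not overlap between the lines in any setting. Bop1 (chromosome 15, 76452989 to 76477277) was called in none, at 0.16 in culture (SE 0.19, adjusted p 0.53), -0.47 in BALB/c tumors (SE 0.18, adjusted p 0.072) and -0.26 in SCID-beige tumors (SE 0.15, adjusted p 0.20). Pes1 (chromosome 11, 3963975 to 3980004) was at -0.05, -0.39 and -0.31 (adjusted p 0.83, 0.074 and 0.16). Under the block, a pairing inferred from these data, Bop1 and Pes1 had adjusted p of 0.0074 and 0.019 in BALB/c tumors.

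Rrs1, which brings the 5S RNA particle to the large subunit (chromosome 1, 9545408 to 9547455), had the largest difference in culture, with 92.4, 75.5 and 64.2 CPM in D2.1 and 210.6, 214.6 and 155 CPM in D2A1 (-1.32, SE 0.18, adjusted p 4.8e-04). It was lower in D2.1 by -1.28 in BALB/c tumors (SE 0.18, adjusted p 3.6e-04) and by -0.56 in SCID-beige tumors (SE 0.18, adjusted p 0.025). Ppan, a large subunit factor (chromosome 9, 20888175 to 20892178), had the largest difference in SCID-beige tumors, with 67.3, 69.4, 61.4, 72.4 and 53.4 CPM in D2.1 and 151, 181, 106, 119 and 92.8 CPM in D2A1 (-1.01, SE 0.19, adjusted p 0.0011). No SCID-beige tumor of D2.1 reached a D2A1 tumor for Ppan. It was also lower in BALB/c tumors (-1.28, SE 0.28, adjusted p 0.0055), while in culture it was at -0.56 (SE 0.28, adjusted p 0.14, and 1.8e-04 under the block).

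Nop2, a methyltransferase of the large subunit RNA (chromosome 6, 125131909 to 125144753), and Rrp1b were lower in D2.1 in all 3 comparisons, Nop2 by -0.62, -1.18 and -0.66 and Rrp1b by -1.01, -1.08 and -0.60. Gnl3 (nucleostemin, a nucleolar GTPase, chromosome 14, 31012433 to 31019152) was lower in BALB/c tumors, at 52.1, 74.7, 58.6 and 62.2 CPM in D2.1 against 137, 127, 108 and 112 CPM in D2A1 (-0.96, SE 0.16, adjusted p 0.0011). In SCID-beige tumors Gnl3 overlapped and was not called (-0.32, SE 0.16, adjusted p 0.15). In culture the 3 D2.1 values of 183, 165 and 91.4 CPM lay below those of D2A1 (270, 258 and 186 CPM), the highest by a narrow margin, and its -0.70 (SE 0.26, adjusted p 0.0537) passed with the block (-0.74, adjusted p 2.2e-05).

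Across settings, 9 members were lower in D2.1 in all 3 comparisons: Nop56, Nop58, Nop14, Imp4, Nop2, Wdr12, Rrs1, Rrp1b and Ncl. They were 20.5% of the 44 members tested in all 3, against 744 of 11936 genes (6.23%). A further 6 members were called in both hosts and not in culture, namely Rrp9, Gar1, Ppan, Npm1, Nolc1 and Mybbp1a. Utp15, Heatr1 and Noc3l were called in culture and in neither host, and 7 members were called in BALB/c tumors and in neither other comparison (Fbl, Dkc1, Noc4l, Wdr43, Nop16, Ftsj3 and Gnl3). The remaining groups were 5 members called in culture and BALB/c tumors (Polr1a, Polr1b, Wdr75, Utp18 and Rrp12), Imp3 in culture and SCID-beige tumors, and 14 called in none. These 14 were Polr1c, Ubtf, Nhp2, Utp20, Bysl, Ltv1, Tsr1, Nle1, Nip7, Noc2l, Bop1, Pes1, Wdr74 and Ebna1bp2.

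In BALB/c tumors all 4 D2.1 values lay below all 4 D2A1 values for 29 of 44 members (17.3% of all genes tested), and in SCID-beige tumors all 5 lay below all 5 for 8 of 44 (11.1% of all genes). In culture this held for 21 of 45 members (27% of all genes). D2.1 SCID-beige tumor 4 was the highest of its group for 34 members and had the highest Myc of the D2.1 tumors. It also had the lowest leukocyte markers of its group (289 CPM summed, against 467 to 716) and the highest mammary epithelial markers (1233 CPM, against 470 to 645), whose part in its levels was not tested. Without it 23 members were called in SCID-beige tumors, and without D2.1 SCID-beige tumor 5, the lowest of the group for 24 members, 10 were called. Shares of all genes called without these tumors are not given here, so the counts describe the members alone.

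Whether a line difference changed with host or setting was tested directly. The test of line by host called 0 of 45 members (edgeR, with 9 at an unadjusted p under 0.05, and 0 by DESeq2, with 7), where 3 of 16036 genes were called (0.0187%). In all 9 the line difference was more negative in BALB/c mice, as in 4.66% of all genes at that p. The median of the members was -0.38, that is, the fitted line difference was more negative in BALB/c mice, and the median of all genes was -0.06. It was negative for 42 of 45 members and for 55.3% of all genes. The largest of the 9 were Noc3l (-0.75, SE 0.33, adjusted p 0.54), Dkc1 (-0.78, SE 0.31, adjusted p 0.51) and Rrs1 (-0.72, SE 0.24, adjusted p 0.40). In the test of SCID-beige tumors against culture, 1 member was called, Imp4, whose line difference was smaller in SCID-beige tumors than in culture (difference 0.73, SE 0.20, adjusted p 0.02; 12.8% of 15077 genes were called in either direction). This call was lost without cultured D2A1 replicate 1, without cultured D2A1 replicate 2 and without cultured D2.1 replicate 3, and DESeq2 called 3 members (6.93% of all genes in that direction). Imp4 averaged 46.3 CPM and 7.56 FPKM in cultured D2.1 cells, and 50.1 CPM and 31.3 FPKM in D2.1 SCID-beige tumors. The gene length behind its FPKM thus differed strongly between the tables, and its exons overlap Gm28306 on the opposite strand. The part of both in this call was not tested.

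Between hosts, the members of a line were not called. For D2.1 tumors 0 of 44 members passed the threshold (edgeR, with 6 at an unadjusted p under 0.05, all lower in BALB/c mice as 2.81% of all genes were, and 0 by DESeq2, with 10), where 0.891% of 14929 genes did. The fitted change was negative for 43 of 44 members and for 51.2% of all genes, with a median of -0.31 over the members. Gnl3 was the nearest to the threshold, with a change of -0.51 in BALB/c against SCID-beige mice (SE 0.16, adjusted p 0.22). For D2A1 tumors 0 of 45 members passed and 0 had an unadjusted p under 0.05 with either tool (1.17% of 14572 genes passed, and 6.29% were higher and 3.82% lower in BALB/c mice at the unadjusted p), with a median of 0.08. Myc did not pass between hosts in either line, at -0.73 (SE 0.30, adjusted p 0.42) in D2.1 and -0.08 (SE 0.23, adjusted p 0.96) in D2A1. Each D2.1 and each D2A1 tumor group serves both a line and a host comparison, so these values share libraries.

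Summed over the 45 members, cultured D2A1 cells had 10883 to 15191 CPM (median 15115) and D2.1 cells 6982 to 11538 CPM (median 10611). Tumors in BALB/c mice had 6350 to 7406 CPM for D2A1 (median 6749) and 3647 to 3929 CPM for D2.1 (median 3718), and those in SCID-beige mice had 5642 to 7692 CPM for D2A1 (median 6419) and 3882 to 5964 CPM for D2.1 (median 4419). The tumor groups were separated in BALB/c mice and overlapped in SCID-beige mice, and Ncl and Npm1 made up a large share of the sum. Without these 2 genes the sums were 4290 to 5029 CPM and 2448 to 2857 CPM in D2A1 and D2.1 BALB/c tumors.

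**Figure D4:**
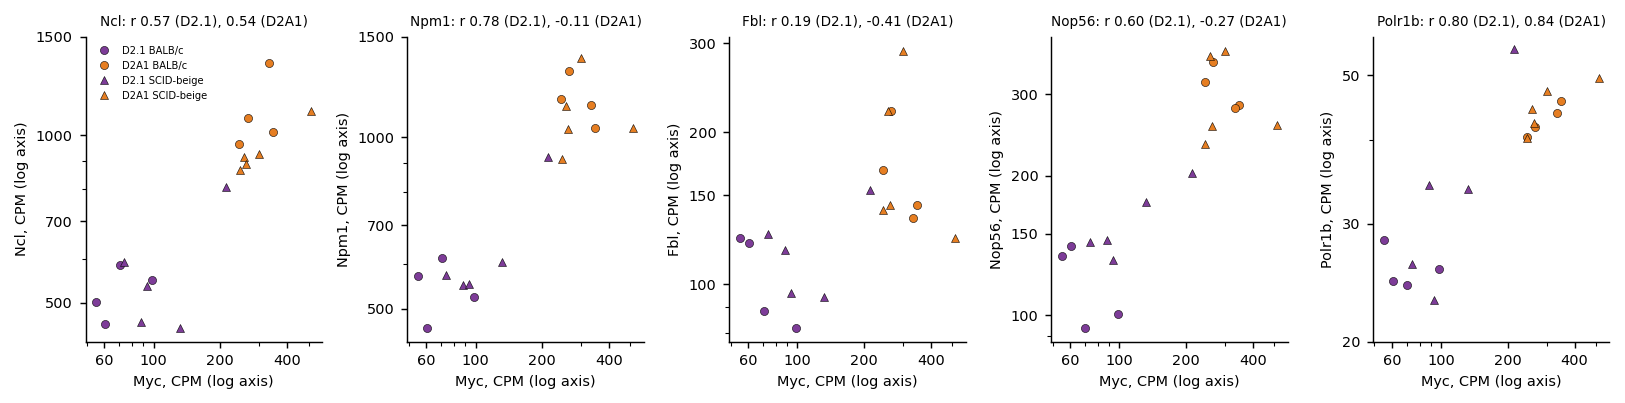
CPM of Myc (x axis, log) against CPM of Ncl, Npm1, Fbl, Nop56 and Polr1b (y axes, log) in the 18 tumors, with color for line, circles for BALB/c and triangles for SCID-beige mice, and Pearson's r within each line above each panel. The lines form separate clusters. Polr1b has the highest r, 0.80 in D2.1 (adjusted exact permutation p 0.086) and 0.84 in D2A1 (0.029), while Npm1, Fbl and Nop56 have negative r in D2A1.

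The level of Myc among tumors of a line was set beside that of 5 members. Correlations of log2 CPM were taken over the 9 tumors of each line for 10 relations, with 2-sided exact permutation tests and Benjamini-Hochberg adjustment over the 10, and no value was pooled over lines because the lines form separate clusters. Polr1b in D2A1 tumors was the relation past the threshold (Pearson's r 0.84, exact permutation p 0.0029, adjusted 0.029; Spearman's rho 0.80, p 0.014, adjusted 0.14), and r was 0.67 without the 2 tumors farthest from the median Myc. With DESeq2's size factors its r was 0.75 and the adjusted exact permutation p was 0.099. In D2.1 tumors Polr1b and Npm1 had r of 0.80 and 0.78 (adjusted exact permutation p 0.086 each), with rho of 0.40 and 0.33, and r of 0.56 and 0.46 without the 2 farthest tumors. For Ncl, r was 0.57 in D2.1 and 0.54 in D2A1, with rho of 0.20 and 0.68, and without the 2 farthest tumors -0.29 and 0.74. Nop56 had r of 0.60 and -0.27 with rho of 0.47 and -0.02, and Fbl had r of 0.19 and -0.41 with rho of -0.12 and -0.32. Each host holds 4 or 5 tumors of a line, too few for a value in each host, so Myc and the members were also taken as deviations from the mean of their host and permuted within hosts, an analysis chosen after seeing the data. Polr1b in D2A1 tumors then had r of 0.86 (exact permutation p 0.0017, adjusted 0.017), and it was again the relation past the threshold. The others ranged from -0.42 (Fbl in D2A1) to 0.73 (Npm1 and Polr1b in D2.1, adjusted exact permutation p 0.22 each), with Ncl in D2A1 at 0.71 (adjusted 0.22).

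Other genes of the same processes, 94 in 3 lists, were also lower in D2.1 more often than higher, with a share in SCID-beige tumors near that of all genes. In culture 36 of 93 tested were lower in D2.1 (38.7%, against 20.7% of all genes) and 5 were higher, in BALB/c tumors 44 of 94 were lower (46.8%, against 15.8%) and 1 higher, and in SCID-beige tumors 17 of 94 were lower (18.1%, against 14.8%) and 2 higher. Their medians were -0.39, -0.51 and -0.19. Of 11 other polymerase I genes, 4 were lower in each comparison, not the same 4 each time, and 0 were higher. Taf1b, a subunit of the promoter selectivity factor, was lower in all 3 (-1.05, -0.96 and -0.74, adjusted p 0.0014, 0.0034 and 0.0051). So was Taf1d (-0.62, -1.13 and -1.03), and Rrn3, which recruits the enzyme, was lower in the 2 hosts (-0.83 and -0.56). Of 40 other small subunit genes, 17, 19 and 7 were lower and 3, 0 and 1 higher, with Wdr36 (-1.02, -1.46 and -1.02) and the RNA acetyltransferase Nat10 (-0.88, -0.74 and -0.52) lower in each, and Utp23 higher in culture (0.77) and SCID-beige tumors (0.73). Of 43 genes in the other large subunit list, 15, 21 and 6 were lower (14% in SCID-beige tumors, below the share of all genes) and 2, 1 and 1 higher, with Nmd3, the export adapter of the large subunit (-0.87, -1.21 and -0.59), and Nop10, a box H/ACA protein that was kept in this list (-0.93, -0.89 and -0.94), lower in each and Brix1 higher in SCID-beige tumors (0.64, SE 0.15, adjusted p 0.0045).

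Of 15 proliferation markers 4 were lower in D2.1 in culture (26.7%, against 20.7% of all genes), 11 in BALB/c tumors (73.3%, against 15.8%) and 3 in SCID-beige tumors (20%, against 14.8%), with 0 higher, and their median changes were -0.21, -0.78 and -0.23. The replication helicase gene Mcm6 was lower in all 3 (-0.83, -0.86 and -0.67), while Mki67 was called in none (0.22, 0.19 and 0.38). Summed proliferation markers were at 1745 to 2401 CPM in D2A1 and 1280 to 1563 CPM in D2.1 BALB/c tumors, and at 1632 to 1951 CPM and 1261 to 1999 CPM in SCID-beige tumors. Among Myc's relatives, Mycl (-3.94, SE 0.47, adjusted p 2.3e-04) and its partner Max (-0.57, SE 0.12, adjusted p 0.0042) were lower in cultured D2.1 cells, and neither was called in tumors.

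Host cells differed between the tumors as well. The 10 leukocyte markers summed to 609 to 763 CPM in D2.1 and 445 to 665 CPM in D2A1 BALB/c tumors, and to 289 to 716 CPM and 229 to 313 CPM in SCID-beige tumors, with Cd3g at 0 in every SCID-beige tumor of D2A1. The 4 endothelial markers were lower in D2.1, at 79.0 to 136 CPM against 206 to 267 CPM in BALB/c mice. There 3 of 4 were called, beside 15.8% of all genes. In SCID-beige mice they were at 56.0 to 89.6 CPM against 182 to 264 CPM, with 4 of 4 called, beside 14.8% of all genes. Adipocyte markers summed to 10.1 to 187 CPM in D2.1 and 14.3 to 58.2 CPM in D2A1 BALB/c tumors, and skeletal muscle markers to 26.4 to 303 CPM and 0.483 to 46.6 CPM. In SCID-beige tumors adipocyte markers were at 0.346 to 26 CPM in D2.1 and 6.07 to 42.3 CPM in D2A1, and skeletal muscle markers at 0.492 to 213.4 CPM and 0 to 9.1 CPM. Skin keratinocyte markers summed to 1.5 to 156 CPM in D2.1 and 3.3 to 5.2 CPM in D2A1 BALB/c tumors. In SCID-beige tumors they were at 1.1 to 3.8 CPM and 1.3 to 6.1 CPM. Krt5 was called higher in D2.1 BALB/c tumors (2.90, adjusted p 0.029), and Krt10 lower in D2.1 SCID-beige tumors (-4.13, adjusted p 0.0018). Krt10 was also lower in cultured D2.1 cells (-7.69, adjusted p 3.6e-04). The muscle marker Acta1 was higher there (3.61, adjusted p 1.3e-04), so neither is particular to host cells. D2.1 BALB/c tumor 1 stood apart, with milk protein markers at 382 CPM (at most 2.33 in any other tumor), the adipocyte value of 187 CPM and the muscle value of 303 CPM, and it was the lowest of its group for 17 members. Without it 25 members were lower in D2.1 BALB/c tumors, a count given without the share of all genes. In cultured cells, leukocyte markers summed to at most 1.68 CPM and endothelial markers to at most 0.762 CPM. The part of host cells and of cell division in the tumor differences was not tested.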

How the data were processed

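The members and gene lists were chosen with earlier results of these data known. The RNA-seq libraries (24, of which 6 were of cultured cells and 18 of tumors, with 0 unassigned) were grouped by the sample labels. Sequencing was done at Novogene (NovaSeq), and the submitters' notes on processing name STAR and mm10 (the GRCm38 assembly). The counting program, annotation and strand setting are not given in the sources used here. Values deposited by the authors were raw read counts for each gene and library. The deposited FPKM values were checked to be these counts over gene length and library total in 100% of genes with at least 20 counts, within 1 percent. Cell and tumor tables listed 35275 and 54532 genes, and the length behind FPKM differed by over 10 percent between them in 82.2% of genes. Symbols and positions came from GENCODE M21, and identifiers absent from it held 0.0969% and 0.00594% of counts.

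Counts were tested with edgeR 4.0.16 in R 4.3.3 (TMM, filterByExpr, robust quasi-likelihood test, Benjamini-Hochberg over all genes tested, threshold 0.05), with the groups compared in each fit. The standard error is the log2 fold change over the square root of F. Log2 CPM used a prior count of 2. The line by setting test used genes listed in both tables, whose annotations differ. Genes named are a fixed set per role, Myc and the 3 largest falls and rises per comparison past the threshold. Other members are named to account for counts, and genes of other lists as examples chosen after their values were seen. All 38 pairs of replicates were compared, and none were copies (lowest chi-square per degree of freedom 5.20). Procedures were tested on simulated data.

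Sample titles number the replicates alike in each group, while the names of the deposited tumor columns run on through both hosts of a line. The correlation of deviations from group means of same-numbered libraries was 0.332, 0.184 and 0.491 for the cultured lines and 0.100, 0.491, 0.280 and 0.345 for the BALB/c tumors, so the number was taken to pair these libraries, from the data and not from a stated batch. A library correlated best with its own number for 1 of 3 numbers in culture and 1 of 4 in BALB/c mice. In SCID-beige mice it was -0.161 to 0.344, and numbers 1, 2 and 5 correlated best with their own. The data therefore do not settle in which settings the numbers pair. Alternatives were DESeq2 1.42.0, its size factors, upper quartile normalization, 2 other filters (none, or at least 10 counts), the replicate block, a GC slope, one fit of all tumors and each library left out. Correlations used Python 3.11.15 with scipy 1.17.1. Raw reads were not used here. Total counts set counting precision only.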

Additional observations from a re-analysis of the deposited data

Results flagged for a closer look

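Among the 18 genes named by the rule, 72 groups of 4 or 5 tumors were examined for a library far from the others by Dixon's ratio, which marks about 1 in 20 groups by chance. In these 6 the highest or lowest tumor stood apart. Myc in D2A1 SCID-beige tumor 5 was at 514 CPM, with the other 4 at 244 to 300. Ncl in the same tumor was at 1105 CPM, with the others at 866 to 923. Npm1 in D2.1 SCID-beige tumor 4 was at 922 CPM, with the others at 551 to 604. Ubtf in D2A1 SCID-beige tumor 2 was at 280 CPM, with the others at 218.5 to 235. Bysl in D2A1 BALB/c tumor 3 was at 65.7 CPM, with the others at 40.4 to 44.5. Imp4 in D2A1 SCID-beige tumor 4 was at 56.8 CPM, with the others at 65.9 to 68.7.

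The line difference of Imp4 differed between SCID-beige tumors and culture by 0.73 on the log2 scale (SE 0.20, adjusted p 0.02 by edgeR's interaction test). It was the member whose difference passed that test, where 12.8% of all genes passed in either direction. The call was lost without cultured D2A1 replicate 1, cultured D2A1 replicate 2 or cultured D2.1 replicate 3. The gene length behind Imp4 also differed between the culture and tumor tables, whose part in the call was not tested.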

How the results depend on the processing

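With DESeq2, its size factors, upper quartile normalization, both filters, the GC slope and one fit of all tumors, the members called lower in D2.1 numbered 13 to 25 in culture, 27 to 36 in BALB/c and 15 to 21 in SCID-beige tumors, with 0 called higher. With the replicate block they were 35, 39 and 19. With block and GC slope together they were 21, 0 and 2, and the BALB/c fit by edgeR then had 2 residual degrees of freedom and 16 members at an unadjusted p under 0.05. Leaving out 1 library gave 10 to 29 members in culture, 25 to 28 in BALB/c, 10 to 23 in SCID-beige tumors, 0 in both host comparisons and line by host, and 0 to 2 for line by setting, where DESeq2 gave 3. The block changed no other count of calls by over 1.5 times. Shares of all genes called are not given for most of these fits, so the counts describe the members alone. Upper quartile normalization moved the median of all genes in culture to -0.11 and of the members to -0.57.

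Directions that turned were of changes not called without the block, and Npm1 in culture was called with it. In culture Npm1 was at 0.17 with block and GC slope and at most at 0.01 with a library left out (range -0.44 to 0.01). Bysl there was at -0.08 with upper quartile normalization, -0.40 with the GC slope, -0.01 with block and GC slope, and -0.12 to 0.16 with a library left out. Bop1 was at -0.48 and -0.28 with the GC slope without and with the block, and at -0.04 to 0.27 with a library left out. Pes1 was at 0.01 with both and -0.18 to 0.09. In SCID-beige tumors Heatr1 was at 0.14 and Bysl at 0.08 with block and GC slope, and Bysl at -0.22 to 0.01 with a library left out. Myc between hosts in D2A1 tumors was at 0.15 with the block, 0.07 with block and GC slope, and -0.17 to 0.16 with a library left out. For line by setting, the members' median was -0.10 to 0.25 and that of Myc -0.11 to 0.45 with a library left out. Of the correlations with Myc, those without the 2 farthest tumors were -0.29 (Ncl) and -0.49 (Fbl) in D2.1 and 0.42 (Npm1), 0.08 (Fbl) and 0.15 (Nop56) in D2A1, against 0.46 for Npm1 in D2.1. Polr1b in D2A1 was at 0.75 with DESeq2's size factors, no longer past the threshold. The cause of these changes was not tested. Members near the floor were not at issue except Wdr74 in tumors.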
